A study of Mus musculus with 8 samples.

Results

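The chemokine genes described here are the protein-coding genes of the deposited count table whose symbols name a CC, CXC, XC or CX3C chemokine, a receptor for one, or an atypical chemokine receptor (Ackr1 to Ackr4). By that rule on gene names there were 62 of 56748 genes, 39 ligands (24 CC, 13 CXC and 2 of the XC or CX3C type) and 23 receptors (11 CC, 6 CXC, 2 of the XC or CX3C type and 4 atypical). They were measured by poly-A RNA sequencing of whole skin from 8 male mice killed at 35 weeks of age without any treatment. The wild-type group was 5 mice with genotype NPY +/+ and the NPY-tet group was 3 of their siblings with genotype NPY tet/tet, homozygous for the Npytm2Rpa allele of strain B6;129S4-Npytm2Rpa/J. It is a tetracycline-regulated allele of Npy that the series names as an overexpression model, and the labels name no driver, cell type or drug. The series poses the question of an inflammatory and fibrotic skin response to neuropeptide Y, and the chemokine genes bear on its inflammatory side. Each library was 1 mouse, so p-values measure the spread between animals.

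Chemokines are small secreted proteins that bind to glycosaminoglycans in tissue and guide the movement of leukocytes along their gradients. Their receptors are G protein-coupled receptors on the moving cells, where they lead through inhibitory G proteins to Rac activation and integrin adhesion, whereas the atypical receptors take up or transport chemokines without that signal. In skin, homeostatic chemokines such as Cxcl12, Cxcl14, Ccl27a and Ccl21a are made by stromal, epithelial and lymphatic cells, while the interferon-induced Cxcl9 and Cxcl10 and the monocyte-attracting CC ligands are known from inflamed tissue.

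The libraries held 31370433 to 47495565 counts. Npy checked the labels: its level was 0.159 to 0.502 CPM (counts as a share of the library after TMM scaling) in the 5 wild-type mice and 299.7 to 321.5 CPM in the 3 NPY-tet mice. It was the 1 gene of 18495 tested (0.00541%) with an adjusted p under 0.05 by edgeR's quasi-likelihood test with Benjamini-Hochberg adjustment. The libraries also differed in ribosomal RNA, which took 6.54% to 8.13% of the counts in 5 of them (4 wild-type mice and NPY-tet replicate 1) and 0.0398% to 0.0759% in the other 3 (wild-type replicate 4 with both remaining NPY-tet mice). These are called the rRNA-rich and rRNA-poor libraries, and values within each set stand beside the results that they touch. Keratinocyte markers summed to 12089 to 23113 CPM over all 8 mice, and all 8 of the list were detected, as the label of whole skin implies. Skeletal muscle markers summed to 26212 to 67220 CPM, and fibroblast markers to 10880 to 24484 CPM in wild-type and 2802 to 25848 CPM in NPY-tet mice, so these sums differed widely between samples, and the part of tissue composition in the values below was not tested.

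The skin of these mice expressed a broad set of chemokines at very unequal levels. The deposited FPKM scale gives counts per gene length and per a scaled library size. On it Ccl8, a monocyte and T cell attractant made by dermal macrophages, was the highest ligand. It had 204 ± 51.2 FPKM (SD, n = 5) in wild-type and 122.5 ± 37.2 FPKM (SD, n = 3) in NPY-tet mice. The next was Cxcl14, an epithelial chemokine, with 94.5 ± 14.2 FPKM in wild-type and 77.5 ± 16.7 FPKM in NPY-tet mice. Ccl21a followed at 52.1 ± 6.08 FPKM in wild-type and 28.3 ± 6.90 FPKM in NPY-tet mice. It is a gene for CCL21, which lymphatic vessels display to draw in dendritic cells and T cells. Ccl21a shares 50.3% of its 100-base windows with near-identical copies, so its level is uncertain. Below Ccl21a in wild-type mice came Ccl6, a chemokine of macrophages, at 32.4 ± 3.27 FPKM and Cxcl12, the stromal ligand of Cxcr4, at 24.2 ± 3.31 FPKM. In wild-type skin these 5 levels were each separated from the next by more than 1 SD of either. In NPY-tet skin Ccl6 (37.6 ± 17.1 FPKM) lay above Ccl21a, and the SDs of the 2 overlapped.

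Receptors were lower than the leading ligands, and 4 of the 5 highest were atypical. Ackr3, a scavenger of Cxcl12, had 19.7 ± 3.50 FPKM in wild-type and 15.3 ± 5.51 FPKM in NPY-tet mice. Ackr1, which venules use to carry chemokines across the vessel wall, had 10.5 ± 0.957 FPKM in wild-type mice. Ackr4, a scavenger of Ccl19 and Ccl21a, had 8.12 ± 1.13 FPKM there. Ccr4, a receptor of skin-homing T cells, was the highest signalling receptor at 4.97 ± 0.456 FPKM in wild-type mice, above Ackr2, a scavenger of inflammatory CC ligands, at 3.25 ± 0.792 FPKM. By counts rather than per length, Cxcl12, Cxcl14 and Ccl8 together took 50.5% to 64.8% of all ligand counts in every library. Summed over the 39 ligands the level was 693 to 921 CPM in wild-type and 556 to 844 CPM in NPY-tet mice, and over the 23 receptors 170 to 226 and 154 to 189 CPM, so the sums of the groups overlapped.

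**Figure D1:**
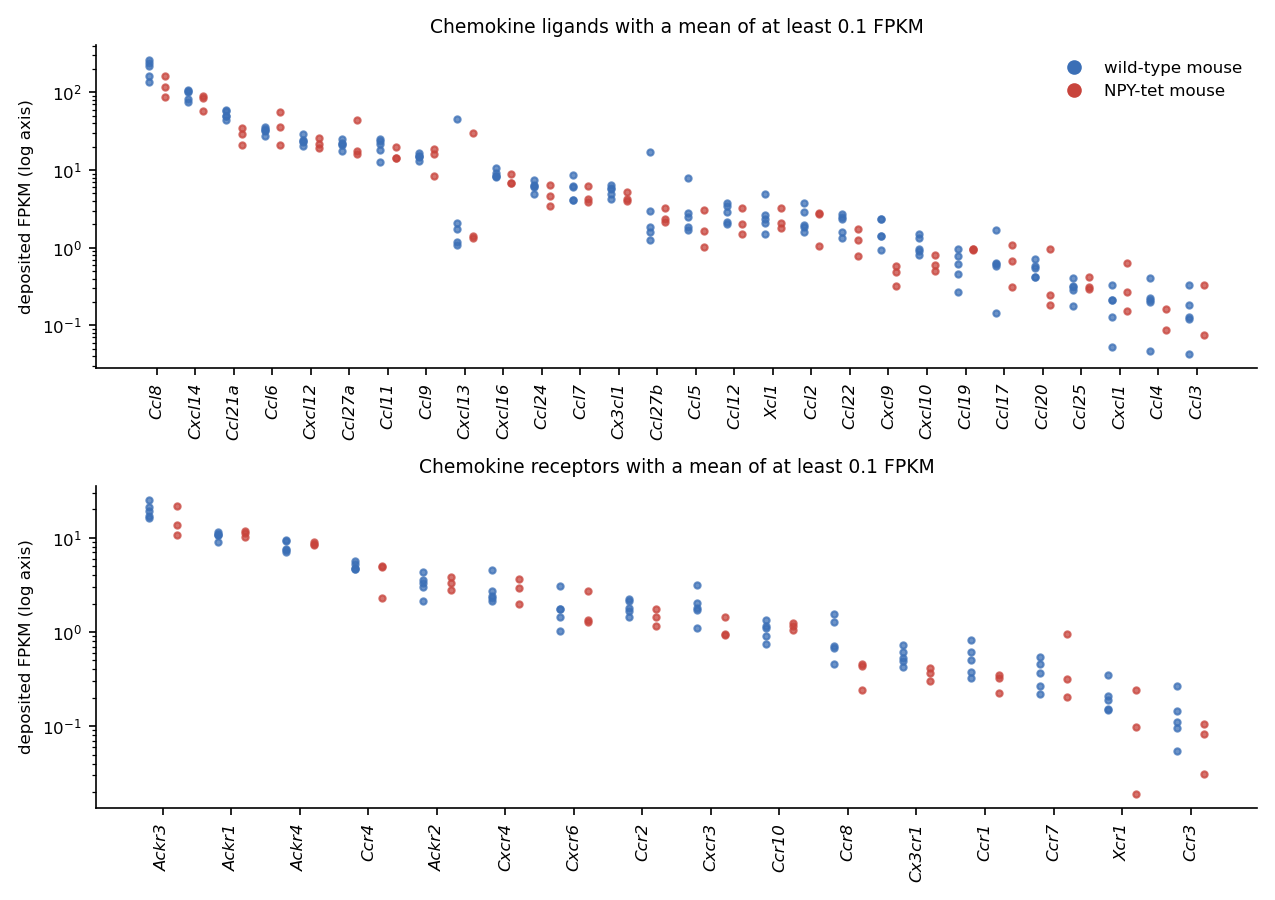
Deposited FPKM (log axis) of the chemokine ligands and receptors with a mean of at least 0.1 FPKM, 1 point per mouse, wild-type in blue and NPY-tet in red, ordered by mean. Ccl8 is the highest ligand and Ackr3 the highest receptor. Values of 0 and 1 of the receptors are not drawn.

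Of the 62 genes, 46 (28 ligands and 18 receptors) had enough counts to be tested. The other 16 had at most 67 counts summed over all mice. These were the CC ligands Ccl3, Ccl4, Ccl21b, Ccl21d and Ccl26, the CXC ligands Cxcl2, Cxcl3, Cxcl5, Cxcl11, Cxcl15 and Cxcl17, and the receptors Ccr6, Ccr1l1, Cxcr1, Cxcr2 and Cxcr5. Ccl21b, Ccl26 and Cxcl15 had 0 counts in every mouse. Whether these low genes differed between genotypes was not detectable at this depth. For Ccl21b, 100% of the 100-base windows of its transcripts occur also in related genes, so its 0 counts do not show that it is absent. Cxcl11 shares 39.1% of its windows with another gene. Ccr6, the receptor of Ccl20, had 1, 0, 0, 1 and 1 counts in wild-type replicates 1 to 5 and 3, 13 and 6 counts in NPY-tet replicates 1 to 3. The groups did not overlap, and without the filter on low counts its unadjusted p was 0.0137 and its adjusted p 0.750 by edgeR's quasi-likelihood test. Ccr6 was chosen after its values were seen.

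Between genotypes, the tested chemokine genes stood on the lower side in NPY-tet skin, with small differences for most. The fitted log2 fold change of NPY-tet over wild-type was below 0 for 33 of 46 members, or 71.7%, where it was below 0 for 49.3% of all 18495 genes tested. The median was -0.26 over the 28 ligands and -0.32 over the 18 receptors, beside 0.0041 over all genes tested. Within the rRNA-rich libraries the ligand median turned to 0.10, while the receptor median was -0.37. None of the 46 had an adjusted p under 0.05 by edgeR (0 of 46, smallest adjusted p 0.322), a call that 0.00541% of all genes passed. At an unadjusted p under 0.05 there were 9 members lower in NPY-tet mice (19.6% of 46) and 0 higher, where 3.55% of all genes were lower and 2.43% higher at that level. With DESeq2, 2 members (Cxcl9 and Ccl21a) were lower at an adjusted p under 0.05 and 0 were higher, beside 0.232% and 0.135% of all genes. With limma-voom none passed. In whole skin, fewer cells of a type and less RNA per cell cannot be told apart.

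By subfamily the picture was uneven. The median log2 fold change was -0.30 for the 19 tested CC ligands, -0.25 for the 7 CXC ligands and -0.23 for Cx3cl1 and Xcl1. Among receptors it was -0.37 for the 9 tested CC receptors, of which 7 were below 0, and -0.71 for Cx3cr1 and Xcr1. The 3 tested CXC receptors had a median of -0.021 and the 4 atypical receptors one of 0.051, with 1 of the 4 (Ackr3) below 0. In the rRNA-rich libraries the 3 ligand medians were above 0 (0.29 for CC, 0.10 for CXC, 0.13 for the XC and CX3C types), and in the rRNA-poor libraries they were below it (-0.38, -0.64 and -0.91). CXC receptors had medians of 0.38 in the rich and -1.21 in the poor set and atypical receptors 0.070 and -0.32, while CC receptors (-0.69 and -0.24) and the XC and CX3C receptors (-0.79 and -0.77) were below 0 in both. These medians describe the lists, and the difference between subfamilies was not tested.

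**Figure D2:**
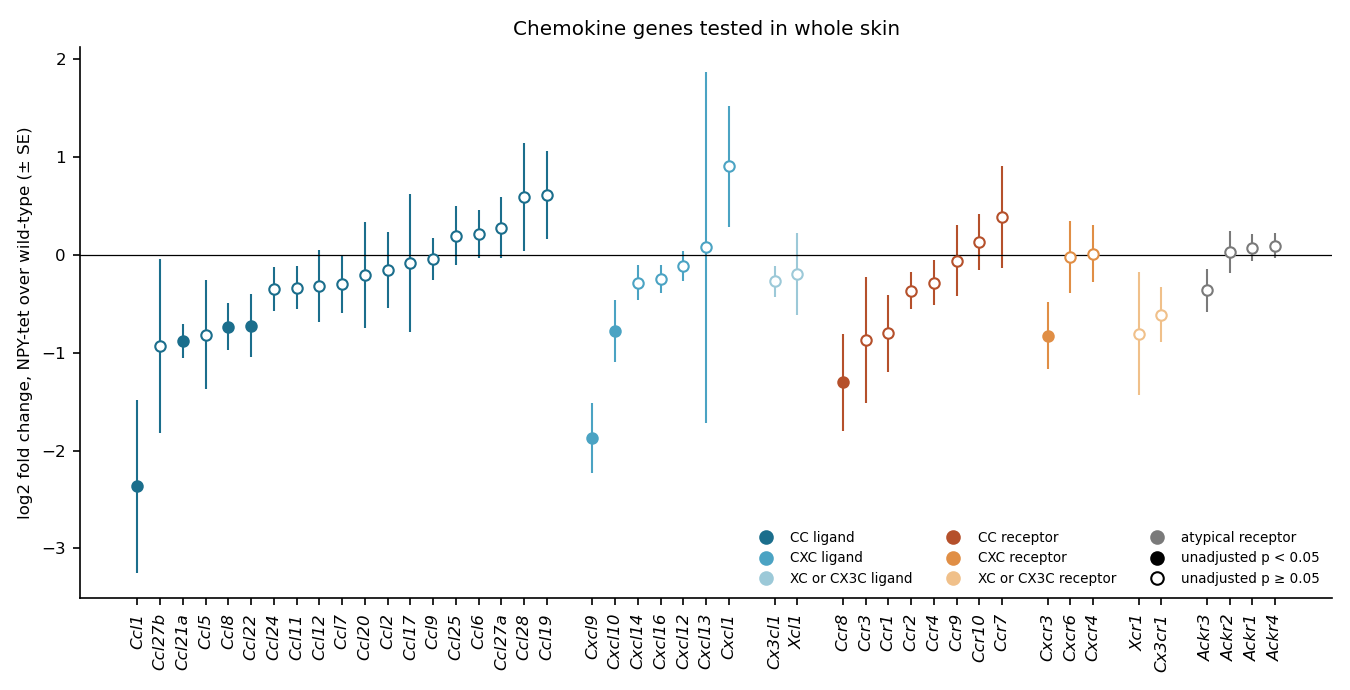
Log2 fold change of NPY-tet over wild-type (± SE, edgeR) for 45 of the 46 tested chemokine genes, coloured by subfamily and ordered by size within each. The 8 filled points, with an unadjusted p under 0.05, all lie below 0.

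Cxcl9 and Cxcl10, which interferon-gamma induces and which attract activated T cells and natural killer cells through Cxcr3, were both lower in NPY-tet skin, as was Cxcr3 itself. In wild-type replicates 1 to 5 Cxcl9 was at 4.34, 4.30, 2.88, 7.06 and 7.09 CPM, and in NPY-tet replicates 1 to 3 at 1.75, 0.976 and 1.47 CPM. All 3 NPY-tet mice lay below all 5 wild-type mice. The log2 fold change was -1.87 ± 0.355 (SE), with an unadjusted p of 0.000209 and an adjusted p of 0.322 by edgeR's quasi-likelihood test. Groups failed to overlap in this direction for 1.98% of all genes tested. Among members this held for 4 genes, with Cxcl9, Ccl21a and Cx3cr1 among them, and in the higher direction for 0 tested members, beside 1.81% of all genes. DESeq2 gave Cxcl9 an adjusted p of 0.000218. The log2 difference was -1.39 within the rRNA-rich libraries (1 NPY-tet against 4 wild-type mice) and -2.54 within the rRNA-poor libraries (2 against 1).

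Cxcl10 was at 1.84, 2.05, 2.18, 3.02 and 3.38 CPM in wild-type mice and at 1.85, 1.14 and 1.36 CPM in NPY-tet mice. NPY-tet replicate 1 lay just inside the wild-type range and the other two below it. Its log2 fold change was -0.78 ± 0.318 (unadjusted p = 0.0307, adjusted p = 0.795 by edgeR), with -0.33 in rRNA-rich and -1.29 in rRNA-poor libraries. Cxcl11, the remaining ligand of Cxcr3, had 4, 15, 7, 5 and 10 counts in wild-type and 8, 9 and 9 counts in NPY-tet mice and was not tested. The receptor Cxcr3 was at 3.62, 1.92, 2.98, 5.42 and 3.14 CPM in wild-type and 1.62, 1.65 and 2.51 CPM in NPY-tet mice. Here the groups overlapped through wild-type replicate 2. Cxcr3 had a log2 fold change of -0.83 ± 0.342 (unadjusted p = 0.0328, adjusted p = 0.795 by edgeR), and it was -0.82 in rRNA-rich and -1.39 in rRNA-poor libraries.

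The 3 ligand genes lie side by side on chromosome 5 (chr5:92469206-92513344 in mm39), Cxcl9 at chr5:92469206-92475938, Cxcl10 at chr5:92494497-92496748 and Cxcl11 at chr5:92507403-92513344, all on the minus strand. The 250 bases before the RefSeq start of Cxcl9 and Cxcl10 are shown because these are the neighbouring genes that were both lower, and those of Ccl21a because it is the other ligand whose groups did not overlap. They are the gene strand read 5′ to 3′ from RefSeq, build GRCm38.p6, at chr5:92328080-92328329, chr5:92348890-92349139 and chr4:42773992-42774241, each on the minus strand. Capitals mark exact matches, on either strand, of 3 motifs. These were the core of the interferon-stimulated response element (GAAA, any 2 bases, GAAA), the gamma-activated sequence (TTC, any 3 bases, GAA) and an NF-kB motif (GGG, any 2 bases, TTTCC).
Cxcl9: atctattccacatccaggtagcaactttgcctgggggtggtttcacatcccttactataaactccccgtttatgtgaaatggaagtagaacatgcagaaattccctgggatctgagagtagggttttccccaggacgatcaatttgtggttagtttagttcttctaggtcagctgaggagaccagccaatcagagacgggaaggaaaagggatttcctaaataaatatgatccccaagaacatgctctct
Cxcl10: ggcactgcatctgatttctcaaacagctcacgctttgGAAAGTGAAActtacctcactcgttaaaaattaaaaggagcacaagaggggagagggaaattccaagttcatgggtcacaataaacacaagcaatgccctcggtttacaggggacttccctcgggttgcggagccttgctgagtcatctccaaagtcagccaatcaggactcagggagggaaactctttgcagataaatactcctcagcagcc
Ccl21a: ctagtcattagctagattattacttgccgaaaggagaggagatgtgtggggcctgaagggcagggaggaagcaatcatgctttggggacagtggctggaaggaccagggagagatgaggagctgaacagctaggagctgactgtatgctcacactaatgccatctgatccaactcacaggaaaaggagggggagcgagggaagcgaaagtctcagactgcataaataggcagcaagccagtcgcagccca
Cxcl10 holds 1 interferon-stimulated core, GAAAGTGAAA, at position -213 from the start, and these letters are not in the windows printed for Cxcl9 and Ccl21a. Only exact matches of the 3 motifs were searched, so a window without capitals is not shown to lack such elements.

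Promoters from 250 bases before to 50 bases after the start were found for 47 of the 62 genes, 54 promoters in all. The interferon-stimulated core was in 3 of the 54 (5.56%), those of Cxcl10, Cxcl14 and Ccl19, against 3.44% of 32851 mouse promoters. These 3 genes had log2 fold changes of -0.78, -0.29 and 0.61, so their fitted signs differed. Cxcl14 and Ccl19 had unadjusted p of 0.130 and 0.200 by edgeR, so their directions are uncertain. The gamma-activated sequence was in 4 of 54 (7.41%, against 8.30% of all), those of Ccl17, Cxcl14, Ccr6 and Ccr1l1. The NF-kB motif was in 6 of 54 (11.1%, against 1.63% of all), those of Ccl9, Ccl20, Ccr3, Cxcl1, Cxcl2 and Cxcl3. A match is a run of letters and not a shown binding site. Some members share near-identical sequence, so the 54 are not independent.

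Cxcl1, Cxcl2 and Cxcl3, which attract neutrophils through Cxcr2, are neighbours on chromosome 5 and share that motif. The 70 bases around 1 match in each (RefSeq, GRCm38.p6, plus strand, chr5:90891144-90891213, chr5:90903772-90903841 and chr5:90785998-90786067) are shown with the match in capitals. A further match in Cxcl1 (GGAAACACCC, the motif on the opposite strand) and one in Cxcl2 (GGGCTTTTCC) stand in lower case within the printed bases.
Cxcl1: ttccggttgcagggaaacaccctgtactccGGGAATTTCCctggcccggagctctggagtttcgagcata
Cxcl2: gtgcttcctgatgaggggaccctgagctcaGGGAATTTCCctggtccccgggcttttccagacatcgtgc
Cxcl3: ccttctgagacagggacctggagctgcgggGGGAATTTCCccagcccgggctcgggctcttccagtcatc
The same 10 letters stand in all 3 genes, at positions -71, -97 and -73 from the start. In these skins the 3 genes were near the limit of detection. Cxcl1 had 13, 25, 3, 12 and 12 counts in wild-type and 47, 19 and 10 in NPY-tet mice, with a log2 fold change of 0.90 ± 0.616 (unadjusted p = 0.169 by edgeR), the highest of any tested member. Cxcl2 had 2, 8, 0, 0 and 3 counts in wild-type and 12, 4 and 0 in NPY-tet mice. Cxcl3 had 1, 0, 0, 0 and 3 against 8, 0 and 0 counts. NPY-tet replicate 1 had the highest count of all mice in each of the 3, and the groups overlapped in each. Their receptor Cxcr2 had 59 counts over all mice.

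Genes of the interferon-gamma pathway were examined beside Cxcl9 and Cxcl10. Of 12 genes in that list, 11 were tested, and 0 passed an adjusted p of 0.05. At an unadjusted p under 0.05, 4 of 11 were lower and 0 higher (beside 3.55% and 2.43% of all genes), with a median log2 fold change of -0.17. Irf1, a transcription factor of interferon responses, was at 30.9 to 42.4 CPM in wild-type and 19.7 to 25.3 CPM in NPY-tet mice (log2 fold change -0.61 ± 0.151, adjusted p = 0.535 by edgeR). Socs1, a feedback inhibitor of the pathway, was at 5.13 to 8.88 and 4.50 to 5.07 CPM (-0.66 ± 0.217, adjusted p = 0.708 by edgeR). In both of these genes all NPY-tet mice lay below all wild-type mice, as in 1.98% of all genes. Both were named for a p among the smallest in the list, so this separation follows in part from that choice. Ifng itself had too few counts to be tested.

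Ccl21a was the abundant ligand with the clearest separation. It stood at 39.2, 44.1, 43.9, 50.5 and 51.4 CPM in wild-type mice and at 25.4, 30.8 and 18.6 CPM in NPY-tet mice, with no overlap between the groups. The log2 fold change was -0.88 ± 0.172 (unadjusted p = 0.000274, adjusted p = 0.346 by edgeR), and DESeq2 gave an adjusted p of 0.00266. It was -0.79 in the rRNA-rich libraries and -1.05 in the rRNA-poor ones. The gene lies at chr4:42772860-42773993 (mm39, minus strand) in a region of near-identical copies. Of the 771 windows of 100 bases in its transcripts, 50.3% occur also in Ccl21b or in related predicted genes, so the share of reads assigned to each copy is uncertain. Of those copies, Gm10591 had 27, 26, 11, 108 and 16 counts in wild-type and 143, 18 and 7 counts in NPY-tet mice, and Ccl21b had 0. With Ccl21a summed with its copies, its log2 fold change was -0.83 (unadjusted p = 0.000587, adjusted p = 0.402 by edgeR). The same 9 members had an unadjusted p under 0.05. Reads that were assigned to no copy would not be in that sum, so the uncertainty remains.

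Its receptor Ccr7, carried by dendritic cells and T cells on their way to lymph nodes, was at 0.539, 0.911, 0.436, 1.08 and 0.736 CPM in wild-type and 1.88, 0.407 and 0.634 CPM in NPY-tet mice. The groups overlapped, and NPY-tet replicate 1 was the highest of all. The log2 fold change was 0.39 ± 0.523 (unadjusted p = 0.473 by edgeR). It was -0.51 without NPY-tet replicate 1, so 1 mouse set its direction. Ccl19, the other ligand of Ccr7, was at 0.235 to 0.856 CPM in wild-type and 0.824 to 0.840 CPM in NPY-tet mice. Its log2 fold change was 0.61 ± 0.450 (unadjusted p = 0.200 by edgeR). Of its 100-base windows, 39.3% occur also in related genes.

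Of the lymphatic endothelial markers other than Ccl21a, 6 were tested. Of these 2 were higher at an unadjusted p under 0.05 (Lyve1, a hyaluronan receptor, and Mmrn1, a multimerin) and 0 were lower, beside 2.43% and 3.55% of all genes. Summed, the 6 stood at 69.3 to 81.0 CPM in wild-type and 74.7 to 126.6 CPM in NPY-tet mice. Of the whole list, Ccl21b was at 0 in every mouse.

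Ccl8 and Ccl1, both ligands of Ccr8, and Ccr8 itself were lower in NPY-tet mice at the unadjusted level. Ccl8 was at 116, 71.3, 84.8, 134 and 122 CPM in wild-type and 45.2, 61.6 and 83.4 CPM in NPY-tet mice. NPY-tet replicate 3 lay among the lower wild-type mice and the other two below the wild-type range. Its log2 fold change was -0.73 ± 0.243 (unadjusted p = 0.0119, adjusted p = 0.724 by edgeR), with -1.10 in rRNA-rich and -0.90 in rRNA-poor libraries. Ccl1, a T cell product, rested on few reads: 10, 2, 11, 11 and 23 counts in wild-type and 3, 3 and 1 counts in NPY-tet mice. Wild-type replicate 2 lay within the NPY-tet range. Its fitted log2 fold change of -2.37 ± 0.887 (unadjusted p = 0.0208, adjusted p = 0.791 by edgeR) depends on those few counts.

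Ccr8, found on skin-resident and regulatory T cells, was at 0.856, 0.810, 0.536, 1.84 and 1.505 CPM in wild-type and 0.541, 0.515 and 0.288 CPM in NPY-tet mice. NPY-tet replicate 1 and wild-type replicate 3 were at nearly the same level, and the other wild-type mice lay above every NPY-tet mouse. The log2 fold change was -1.30 ± 0.495 (unadjusted p = 0.0222, adjusted p = 0.791 by edgeR), with -0.75 in rRNA-rich and -2.20 in rRNA-poor libraries. The gene lies at chr9:119921180-119923972 (mm39).

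Ccl5, from T cells and natural killer cells, was at 2.76, 1.77, 1.64, 7.62 and 2.37 CPM in wild-type and 2.94, 1.00 and 1.59 CPM in NPY-tet mice. The groups overlapped, and wild-type replicate 4 stood apart from the rest. Ccl5 had a log2 fold change of -0.82 ± 0.555 (unadjusted p = 0.171 by edgeR), and -0.21 without that mouse.

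Ccl22, a dendritic cell product that draws T cells through Ccr4, was at 3.77, 3.16, 5.43, 5.82 and 6.32 CPM in wild-type and 2.94, 1.84 and 4.12 CPM in NPY-tet mice. NPY-tet replicate 3 lay within the wild-type range. The log2 fold change was -0.72 ± 0.319 (unadjusted p = 0.0429, adjusted p = 0.795 by edgeR), with -0.65 in rRNA-rich and -0.97 in rRNA-poor libraries. Ccl17, the other ligand of Ccr4, was at 0.0760 to 0.888 CPM in wild-type and 0.163 to 0.567 CPM in NPY-tet mice, a log2 fold change of -0.083 ± 0.705. Ccr4 was at 15.0, 16.4, 14.4, 17.6 and 14.3 CPM in wild-type and 7.24, 15.7 and 15.4 CPM in NPY-tet mice. NPY-tet replicate 1 alone lay below the wild-type range. Ccr4 had a log2 fold change of -0.28 ± 0.226 (unadjusted p = 0.233 by edgeR), and 0.0051 without that mouse. It was -1.03 in rRNA-rich libraries, where that mouse is the only NPY-tet one, and -0.19 in rRNA-poor libraries.

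**Figure D3:**
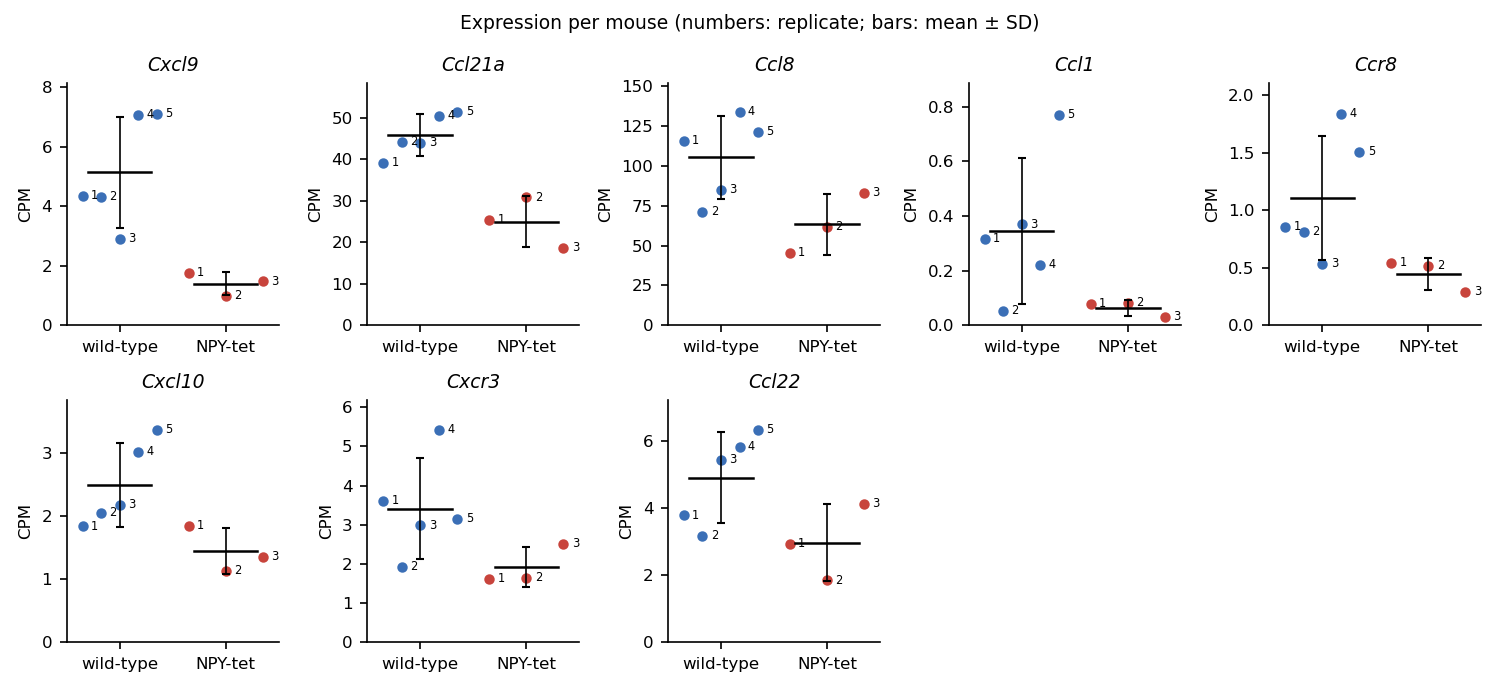
CPM of 8 of the 9 chemokine genes with an unadjusted p under 0.05, 1 point per mouse with its replicate number, and the mean ± SD of 5 wild-type and 3 NPY-tet mice (linear axes from 0). The groups do not overlap for Cxcl9 and Ccl21a. In the other 6, at least 1 NPY-tet mouse lies within the wild-type range.

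The remaining abundant members differed little. Cxcl12 was at 204, 171, 188, 193 and 243 CPM in wild-type and 215, 161 and 177 CPM in NPY-tet mice, a log2 fold change of -0.12 ± 0.153 (unadjusted p = 0.462 by edgeR). Cxcl14 was at 189.9, 140.0, 154, 190.0 and 199.8 CPM in wild-type and 166, 108 and 156 CPM in NPY-tet mice, a log2 fold change of -0.29 ± 0.176 (unadjusted p = 0.130 by edgeR). The groups overlapped in both, with NPY-tet replicate 2 the lowest mouse in each. Ccl6 was at 59.5, 57.8, 65.9, 61.7 and 49.6 CPM in wild-type and 100.4, 38.6 and 65.9 CPM in NPY-tet mice, a log2 fold change of 0.21 ± 0.243 (unadjusted p = 0.399 by edgeR). Its NPY-tet mice lay on both sides of the wild-type range.

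Ackr3 was at 72.6, 57.6, 64.7, 83.8 and 54.6 CPM in wild-type and 36.4, 46.6 and 72.4 CPM in NPY-tet mice, a log2 fold change of -0.36 ± 0.217 (unadjusted p = 0.122 by edgeR). NPY-tet replicates 1 and 2 lay below the wild-type mice and replicate 3 among them. The other atypical receptors were close to equal between groups. Ackr1 had 12.7 to 16.5 CPM in wild-type and 14.3 to 16.7 CPM in NPY-tet mice (log2 fold change 0.073 ± 0.137). Ackr4 had 38.5 to 51.5 and 45.5 to 48.8 CPM (0.094 ± 0.132), and Ackr2 6.70 to 13.5 and 8.88 to 12.2 CPM (0.029 ± 0.216). The signs of these 3 small differences turned under other settings.

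Beyond the 9 genes, the other 37 tested members had log2 fold changes from -0.93 (Ccl27b) to 0.90 (Cxcl1), 24 below 0 and 13 above. Cx3cr1, the fractalkine receptor of macrophages and monocytes, had the smallest p of these (0.0512). It was at 2.41, 2.25, 1.91, 3.28 and 2.78 CPM in wild-type and 1.67, 1.90 and 1.38 CPM in NPY-tet mice, and the groups were separated by a narrow gap. Its ligand Cx3cl1 was at 17.0 to 25.4 CPM in wild-type and 16.0 to 20.6 CPM in NPY-tet mice (-0.27 ± 0.161). The monocyte attractants Ccl2, Ccl7 and Ccl12 had log2 fold changes of -0.16, -0.30 and -0.32, and their receptor Ccr2 one of -0.37 ± 0.192 (unadjusted p = 0.0800 by edgeR). The eosinophil attractants Ccl11 and Ccl24 had -0.34 and -0.35, and their receptor Ccr3 -0.87 ± 0.642. The signalling receptor of Cxcl12, Cxcr4, had 0.011 ± 0.291.

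Many members lie in genomic clusters. Their signs stand beside 49.3% of all genes with a log2 fold change below 0, and whether position mattered was not tested. Of the receptor genes clustered on chromosome 9, Ccr1, Ccr3 and Xcr1 had log2 fold changes of -0.80, -0.87 and -0.81, Ccr2 one of -0.37, and Ccr9 and Cxcr6 were near 0 with -0.059 and -0.021. In the monocyte chemokine cluster on chromosome 11 (chr11:81926397-82196516), the 6 members Ccl2, Ccl7, Ccl11, Ccl12, Ccl8 and Ccl1 were all below 0, with a median of -0.33, and 2 had an unadjusted p under 0.05. Its neighbour cluster at chr11:83416604-83555509 (Ccl5, Ccl9, Ccl6, Ccl3 and Ccl4) had 2 of 3 tested members below 0. At chr8:95472218-95538664, Ccl22, Cx3cl1 and Ccl17 were all below 0, the last of them near it with -0.083. At chr4:41769467-42773993, which holds the Ccl27, Ccl19 and Ccl21 genes, 2 of 4 tested members were below 0.

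Several members took their values from 1 or a pair of mice, and these genes were singled out with their values in view. Cxcl13, the B cell attractant of lymphoid follicles, was at 1.40, 1.27, 2.04, 51.9 and 2.44 CPM in wild-type and 34.4, 1.63 and 1.53 CPM in NPY-tet mice. Wild-type replicate 4 and NPY-tet replicate 1 were far above the other 6 mice, 1 from each genotype. These same mice were the highest of their group for Cxcr6, a receptor of resident T cells (5.90 and 5.25 CPM), and for Xcl1, a ligand for cross-presenting dendritic cells (2.62 and 1.70 CPM). Both were highest for the Ccl21a copy Gm10591 as well. In NPY-tet replicate 1 alone, Ccl27a, the keratinocyte ligand of Ccr10, reached 107 CPM where the other mice had 38.9 to 61.0 CPM. Its near-identical copy Ccl27b was at 7.22 CPM in wild-type replicate 2 and 0.539 to 1.39 CPM in the others. Ccl27b shares 97.9% of its 100-base windows with other genes, so most reads of Ccl27b cannot be told apart from those of its relatives. Ccl27a shares 26.5% of its windows.

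**Figure D4:**
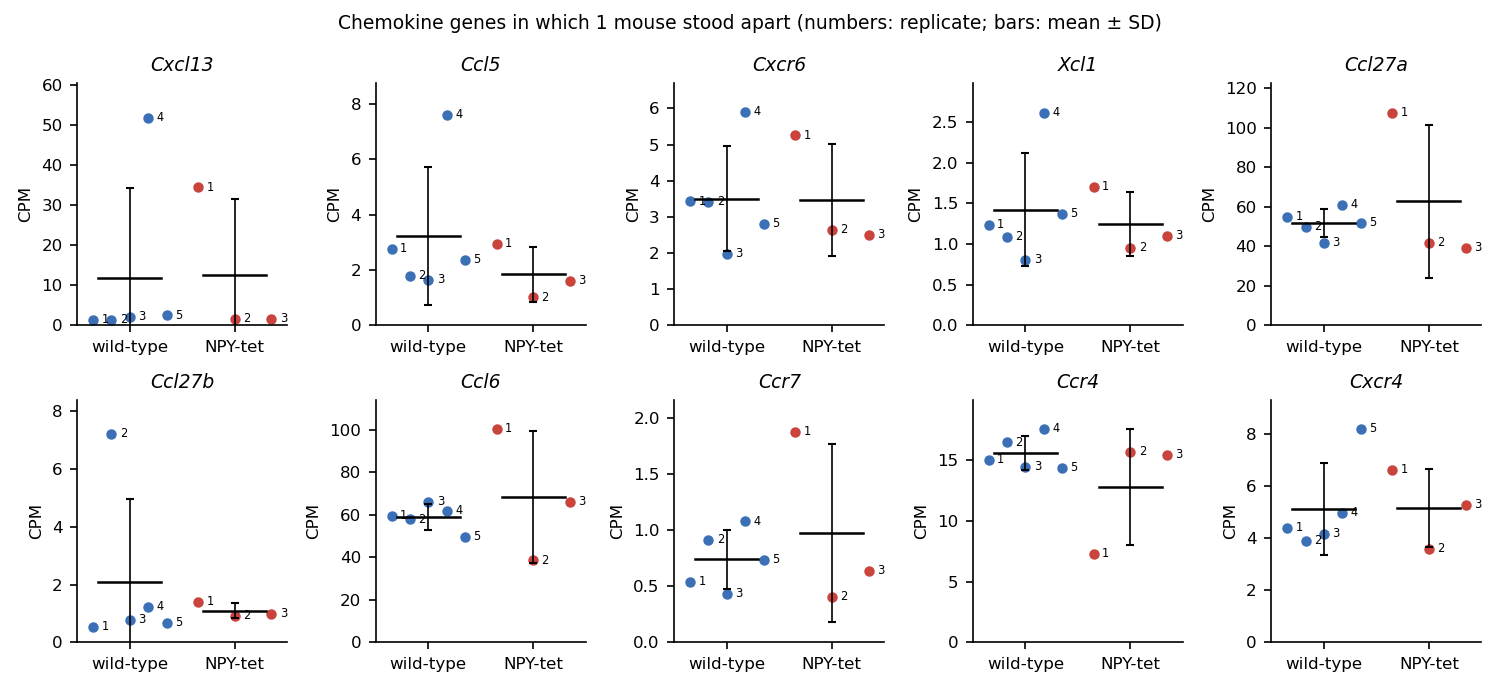
CPM of 10 chemokine genes in which 1 mouse stood apart in 1 or both groups, 1 point per mouse with its replicate number, and the mean ± SD of 5 wild-type and 3 NPY-tet mice (linear axes from 0). Wild-type replicate 4 and NPY-tet replicate 1 are the high points for Cxcl13, Cxcr6 and Xcl1. SD bars that would pass below 0 are drawn down to 0.

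The ligand median differed in sign between the ribosomal RNA sets, and the receptor median did not. Within the rRNA-rich libraries the median log2 difference was 0.10 over ligands and -0.37 over receptors, and within the rRNA-poor libraries it was -0.54 and -0.49. Of 45 members with a value in both sets, 21 were lower in both and 4 higher in both, beside 27.8% and 30.5% of all genes. Of the 9 members at an unadjusted p under 0.05, Ccl1 could be fitted in the rRNA-rich set alone (-2.20), and the other 8 were lower in both sets. The 9 were chosen by their p over these same mice, so the shared direction follows in part from that choice. Each set has 1 mouse on 1 side (NPY-tet replicate 1 in the rich set, wild-type replicate 4 in the poor set), so a set cannot be told apart from that mouse. Ccl5 (0.48 and -2.57), Cxcl13 (4.29 and -5.05) and Ccr7 (1.53 and -1.06) had opposite signs in the 2 sets.

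**Figure D5:**
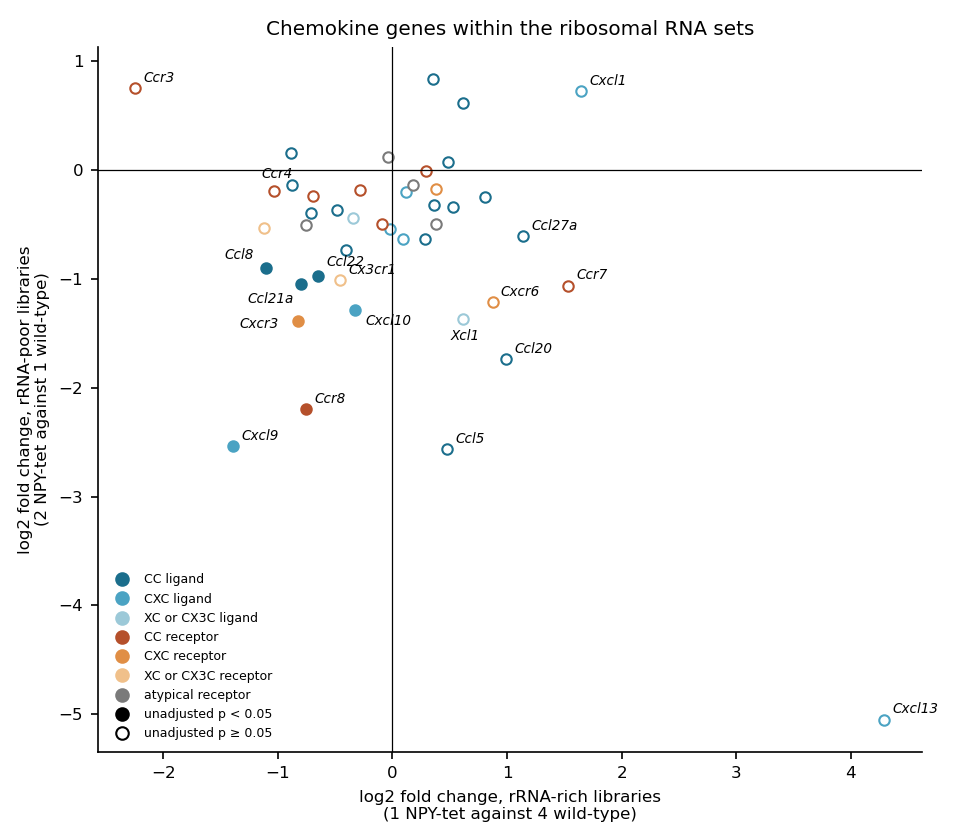
Log2 difference of NPY-tet from wild-type within the rRNA-rich libraries (x axis, 1 against 4 mice) and within the rRNA-poor libraries (y axis, 2 against 1 mouse), 1 point per chemokine gene drawn, coloured by subfamily. The 7 filled points, with an unadjusted p under 0.05 over all mice, lie at the lower left, below 0 on both axes. They were chosen over the same mice that make up the sets. Cxcl13 lies at the lower right, with opposite signs.

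Other parts of the chemokine pathway were described by fixed lists. Of 28 genes of chemokine signal transduction, all 28 were tested and 24 had log2 fold changes below 0 (beside 49.3% of all genes), with a median of -0.17. None passed an adjusted p of 0.05, and 4 were lower and 0 higher at an unadjusted p under 0.05 (beside 3.55% and 2.43% of all genes). Among them Rac2, the leukocyte Rac protein, was at 17.6 to 25.2 CPM in wild-type and 10.8 to 15.9 CPM in NPY-tet mice (-0.66 ± 0.176, adjusted p = 0.549 by edgeR). Dock2, the exchange factor that activates Rac downstream of chemokine receptors, was at 23.3 to 36.4 and 13.5 to 21.3 CPM (-0.66 ± 0.187, adjusted p = 0.594 by edgeR). Prex1, a further Rac exchange factor, was at 44.9 to 58.8 and 34.1 to 42.5 CPM (-0.34 ± 0.139, adjusted p = 0.795 by edgeR). In all 3 the groups did not overlap, with NPY-tet lower, as in 1.98% of all genes. The 3 were named for the smallest p in their list, so this separation follows in part from that choice.

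Of 13 homing partners in endothelium and leukocytes, 11 were tested, 1 was lower at an unadjusted p under 0.05 (beside 3.55% of all genes), and the median was -0.26. That gene was Itgb2, the integrin beta chain through which chemokine-activated leukocytes adhere, at 36.0 to 59.6 CPM in wild-type and 18.8 to 31.9 CPM in NPY-tet mice (-0.76 ± 0.207, adjusted p = 0.566 by edgeR). Its endothelial ligand Icam1 had -0.26 ± 0.145 and its partner chain Itgal -0.35 ± 0.271. Of 15 genes for chemokine-handling enzymes and glycosaminoglycan synthesis, 13 were tested, 0 had an unadjusted p under 0.05, and the median was -0.087. The 3 smallest p in that list belonged to Mmp12, a macrophage protease (-1.72 ± 0.734), Anpep, an aminopeptidase (-0.27 ± 0.154), and Elane, a neutrophil protease (-1.10 ± 0.662), and the groups overlapped in each.

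Markers of leukocytes that make and carry these genes were counted at an unadjusted p under 0.05, a level at which 3.55% of all genes were lower and 2.43% higher, so a count of 0 or 1 in a list this short is near that background. Of 14 macrophage and monocyte markers, all tested, 6 were lower and 1 (Cd163) higher, with a summed level of 1298 to 1761 CPM in wild-type and 852 to 1317 CPM in NPY-tet mice. Of 12 dendritic and Langerhans cell markers, 5 were lower and 0 higher, with sums of 2199 to 3627 and 1435 to 2258 CPM. Of 14 T cell markers, 1 was lower and 0 higher, with sums of 49.1 to 102.3 and 52.4 to 62.5 CPM. Of 8 natural killer and cytotoxic markers, 6 were tested and 1 was lower, with sums of 13.8 to 24.8 and 12.2 to 16.1 CPM. Of the 8 markers of dendritic epidermal T cells, 0 had an unadjusted p under 0.05 (36.3 to 60.8 and 37.3 to 50.3 CPM). None of the markers in these 5 lists was at 0 in every mouse. The part of these cell types in the lower chemokine values was not tested.

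The same shares of all genes, 3.55% lower and 2.43% higher, apply to the remaining lists. Of 8 B and plasma cell markers, 6 were tested and 0 had an unadjusted p under 0.05 (203 to 383 and 124 to 257 CPM). Of 9 neutrophil markers, 5 were tested, with 3 fitted above 0 and 2 below. At that level 2 were higher and 0 lower. The summed level was 36.5 to 107.9 CPM in wild-type and 29.9 to 54.2 CPM in NPY-tet mice. These ranges overlapped and did not lie higher in NPY-tet mice, unlike the count. Ngp was at 0 in every mouse. Of 8 mast cell markers, 2 were lower and 0 higher (152.8 to 189.8 and 114 to 186 CPM). Of 8 blood endothelial markers, 1 was lower and 0 higher (303 to 439 and 240.1 to 385 CPM). Among lists of other tissue, 3 of 8 white adipocyte markers were lower (3140.0 to 5137 and 1956 to 4680.4 CPM), and 0 of the hair, fibroblast, keratinocyte and muscle markers had an unadjusted p under 0.05. The 13 hair matrix and shaft markers ranged from 5.57 to 5169 CPM in sum in wild-type and from 301 to 3287 CPM in NPY-tet mice.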

How the data were processed

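Poly-A RNA of whole skin from 5 wild-type and 3 NPY-tet mice was sequenced from non-directional libraries, per the labels' protocols. The deposited counts are whole reads per Ensembl gene. From their values, the deposited FPKM are those counts per gene length and per a library size that differs from the total of counts. How that size was set is not given. Per the submitters' processing notes the build was mm39 and the tools were featureCounts 1.5.0-p3, HISAT2 2.0.5, CASAVA and DESeq2 1.20.0, with no role, filter or annotation release given. Counts without strand do not separate a gene from an antisense partner. Columns were matched to mice by the numbers in the sample titles. Library names in the descriptions carry a number higher by 1 from the third sample on, with the same genotype, so the mouse behind each replicate number is uncertain.

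Counts were compared by edgeR 4.0.16 under R 4.3.3 (filterByExpr, with a minimum count of 10, TMM, robust quasi-likelihood fit, genotype as the only term, two-sided test), with Benjamini-Hochberg adjustment over all 18495 genes tested and a threshold of 0.05. The SE is the size of the log2 fold change over the square root of F. Depth was 31370433 to 47495565 counts per library, which sets the counting error. Alternatives were RLE and upper-quartile size factors, no filter, a stricter filter (1 CPM in 3 libraries), limma-voom with quality weights, DESeq2 1.42.0, limma 3.58.1 on log2 of FPKM plus a pseudocount of 1 or 0.1, an adjusted p under 0.1, the replicate number as a block, the ribosomal RNA sets (boundary 1% of counts), omission of ribosomal RNA genes, and omission of each library in turn. Ccl21a summed with its copies was chosen after seeing the data. The procedure was tested on simulated data.

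Genes were named by rule: members with an unadjusted p under 0.05, the 5 ligands and 5 receptors highest in mean FPKM, known partners of the former, and from each pathway list up to 3 members with the smallest p. Other members are given by ranges. Single genes that the rule names but the text does not are not reported here. The members, pathway lists and cell marker lists were chosen with earlier results of these data known, and no list was tested as a set. Promoters and starts came from RefSeq (GRCm38.p6), and shared 100-base windows from GENCODE M21 transcripts.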

Additional observations from a re-analysis of the deposited data

Results flagged for a closer look

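Among the 46 tested members, each checked over the 5 wild-type mice, 5 (10.9%) had 1 mouse separated from the rest by more than Dixon's critical value of 0.710. Chance marks about 1 in 20 groups where values are normal and groups independent. These were untransformed CPM of related genes, so an excess over that rate was not tested. In wild-type replicate 4, Cxcl13 was at 51.9 CPM where the other wild-type mice had 1.27 to 2.44 CPM, and Ccl5 was at 7.62 CPM where they had 1.64 to 2.76 CPM. In wild-type replicate 5, Cxcr4 was at 8.23 CPM (the others 3.90 to 4.98 CPM) and Ccl28, an epithelial ligand of Ccr10, at 0.736 CPM (0.159 to 0.300 CPM). Ccl27b was at 7.22 CPM in wild-type replicate 2 (0.539 to 1.24 CPM in the others). The NPY-tet group of 3 was too small for this check.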

How the results depend on the processing

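Cxcl9 and Ccl21a stayed lower in 22 of 22 alternatives each. They had the smallest p of the tested members, and the alternatives reuse all or some of the same mice. The steady direction therefore follows in part from that choice. The count of chemokine genes past an adjusted p of 0.05 was 0 in the main analysis. It was 2 without a low-count filter and 2 with DESeq2 (Cxcl9 and Ccl21a in both). It was 2 in the rRNA-rich libraries (Ccl27a and Cxcl13, both higher) and 4 in the rRNA-poor libraries (Ccl21a, Ccl5, Cxcl9 and Cxcl13, all lower). Over all genes the count was 1, and 21 with no filter, 68 with DESeq2, 3 with limma-voom, 2 with limma on log2(FPKM + 1) and 2 on log2(FPKM + 0.1), 11 with a ribosomal RNA covariate, 332 in rRNA-rich and 227 in rRNA-poor libraries, and 2 at an adjusted p under 0.1. With 1 library left out it was 1 to 8, the 8 without NPY-tet replicate 3.

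The count of 9 members at an unadjusted p under 0.05 ranged from 6 (without wild-type replicate 4) to 10 with 1 library left out. In these fits 13% to 22.2% of members were lower at that p, beside 2% to 7.99% of all genes. The 7.99% arose without NPY-tet replicate 3, where 16.7% of members were lower. Without NPY-tet replicate 2, 1 of the 8 members at that p (Ccl6) was higher. With the replicate number as a block the count was 4 (Cxcl9, Ccl21a and Ccl11 among them), all lower. That was 8.7% of members, beside 6.06% of all genes, and 2 genes in all passed the adjusted threshold. Deviations of same-numbered mice from their group means correlated at -0.044, -0.11 and 0.30. Only NPY-tet replicate 3 had its same-numbered wild-type mouse as the best match. These few correlations do not show a pairing and cannot exclude one. The ligand median of -0.26 was 0.095 in rRNA-rich and -0.54 in rRNA-poor libraries, and -0.36 to -0.16 with 1 library left out. The receptor median of -0.32 was -0.097 with limma on log2(FPKM + 1), a scale that shrinks low genes, and -0.48 to -0.23 with 1 library left out.

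Signs turned for Ccl6, which was -0.13 with limma-voom, -0.25 in the rRNA-poor libraries and -0.17 without NPY-tet replicate 1. Its highest value with 1 library left out was 0.50. Ccr7 was -0.20, -1.06 and -0.51 in the same settings, with a highest value of 0.75 when 1 library was left out. Ccr4 turned to 0.0051 without NPY-tet replicate 1 and went down to -0.46 with another library left out. It was -1.03 in the rRNA-rich libraries and -0.64 with the ribosomal RNA covariate. Signs also turned for Cxcl12, Ackr1 and Ccl5 (0.11, -0.036 and 0.48 in the rRNA-rich libraries) and Ackr4 (-0.14 in the rRNA-poor libraries). Ackr2 turned to -0.018 with the ribosomal RNA covariate, -0.49 in the rRNA-poor libraries, and -0.091, -0.00083 and -0.086 without wild-type replicate 3, wild-type replicate 5 and NPY-tet replicate 1, with a highest value of 0.15 when 1 library was left out. The cause was not tested. Depth limits the 16 members that were not tested, and Ccl1. For Ccl21b and Cxcl11, sequence shared with other genes is a further limit.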

Other observations

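Without the filter on low counts, Cxcl17, a mucosal chemokine, had an unadjusted p of 0.0363 and an adjusted p of 0.750 by edgeR. It rests on 13 counts in wild-type replicate 3 and 2 in wild-type replicate 5, with 0 in the other 6 mice.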
